A study of Mus musculus with 6 samples.

Results

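The genes described here encode the secreted WNT ligands, the receptors that bind them, and the secreted proteins that modulate the signal. They were chosen by name from the deposited gene tables: every gene called Wnt, Fzd, Sfrp 1 to 5 or Rspo 1 to 4, together with Frzb, Lrp5, Lrp6, Ror1, Ror2, Ryk, Porcn and Wls. The tables hold 45 such genes among 46078: 19 ligand genes, 2 genes for ligand processing, 10 Frizzled receptor genes, 5 co-receptor genes, 4 R-spondin genes and 5 genes of the secreted Frizzled-related family. Polyadenylated RNA was sequenced from mesoderm explants of wild-type mouse embryos at E7.25, as the labels give the genotype and stage, and the series description names a reporter strain, TCF/Lef:H2B-GFP. Explants attached to fibronectin for 3 to 4 h, and their culture lasted 27 h by the growth protocol and 24 h by the series description. The 3 groups of 2 libraries were explants exposed for 16 h to 1 µM PD, an inhibitor whose abbreviation the labels leave unexplained, explants given 10 µM YZ9 for 16 h, and control explants. The compound YZ9 inhibits PFKFB3, whose product stimulates glycolysis. Whether controls received the vehicle is not given in the sources used here.

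WNT ligands are lipid-modified in the secreting cell by the acyltransferase PORCN and carried to the cell surface by WLS. On the receiving cell they bind Frizzled receptors. With the co-receptors LRP5 and LRP6 this stabilises beta-catenin, while ROR1, ROR2 and RYK take part in signals that need no beta-catenin. Secreted Frizzled-related proteins bind WNT ligands and limit their reach, and R-spondins raise the signal by keeping Frizzled and LRP receptors at the surface. In the gastrulating mouse embryo WNT signalling is needed to form the primitive streak and the mesoderm that leaves it.

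Total counts were 21253194 to 27810161 per library. The libraries of a group differed by more than counting error in most genes, with a median chi-square per gene (1 degree of freedom) of 8.38 for PD, 6.83 for YZ9 and 7.76 for control. Separate embryos or cultures are not named for replicates in the labels, so a p-value reflects only how these 6 libraries vary. Xist is the transcript behind X inactivation in females. It had 2119 counts in PD replicate 2, 3956 in YZ9 replicate 2 and 0 to 1 in the other 4 libraries. The 2 PD libraries thus differed in Xist, as did the 2 YZ9 libraries. Whether other differences between replicates are technical is not given. Spry4, a feedback inhibitor of receptor signalling to ERK, had 0 counts in both PD libraries, 378 and 286 in the YZ9 libraries, and 630 and 699 in the controls. The 14 markers listed for mesoderm summed to 337 and 801 CPM (counts scaled to a common TMM library size, in the usual CPM unit) with PD, 333 and 680 CPM with YZ9, and 384 and 228 CPM in controls. Among them the early genes T, Tbx6, Mesp1 and Msgn1 had 0 to 8 counts in every library, and Mixl1, another early gene, had 1 and 6 counts with PD, 21 and 326 with YZ9, and 93 and 39 in controls. Hand1, a factor of lateral and extraembryonic mesoderm, stood at 172 and 603 CPM with PD, 179 and 459 CPM with YZ9, and 242 and 125 CPM in controls. In bulk RNA, fewer cells of a type and less RNA per cell cannot be told apart.

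Of the 45 genes, 36 passed the filter on low counts. In edgeR's quasi-likelihood test with Benjamini-Hochberg adjustment over 15568 genes, 0 of the 36 passed an adjusted p of 0.05 with PD against control, where 0.0964% of all genes tested passed. The counts were also 0 of 36 with YZ9 against control, where 0.00642% passed, and 0 of 36 with PD against YZ9, where 0.122% passed. The differences below are therefore given as values. At an unadjusted p under 0.05 stood 9 of 36 with PD against control (7 higher, 2 lower), against 10.8% of all genes tested (5.42% higher, 5.38% lower). With YZ9 against control there were 6 of 36 (2 higher, 4 lower), against 11.3% (4.34% higher, 6.93% lower). With PD against YZ9 there were 10 of 36 (7 higher, 3 lower), against 11.5% (7.09% higher, 4.4% lower). DESeq2 called 4, 3 and 6 of the genes in these 3 comparisons, where it called 2.37%, 1.91% and 2.0% of all 26291 genes. Without the filter on low counts edgeR called 5, 5 and 6 of the genes, against 2.71%, 2.11% and 2.29% of all genes. With limma-trend 0 of the genes were called in each, against 0.128%, 0.00642% and 0.218% of all genes tested. The authors' deposited tables list 5 of the genes at an adjusted p under 0.05 with PD (Wnt2, Wnt2b, Wnt10b, Frzb and Fzd1) and 4 with YZ9 (Wnt4, Wnt6, Wnt7b and Rspo3), among 594 and 586 such genes in the authors' deposited tables (1.29% and 1.27% of the genes listed).

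The median log2 fold change over the 36 tested genes was 0.35 with PD against control, 0.12 with YZ9 against control and 0.32 with PD against YZ9, where the medians over all genes tested were 0.00441, 0.00214 and -0.00157. Both PD libraries lay beyond both controls for 17 of the 36 genes, against 38.7% of all genes tested. For YZ9 against control this held for 16 of 36, against 45.7%, and for PD against YZ9 for 20 of 36, against 43.0%. The comparisons of PD and of YZ9 with control share the control libraries.

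**Figure D1:**
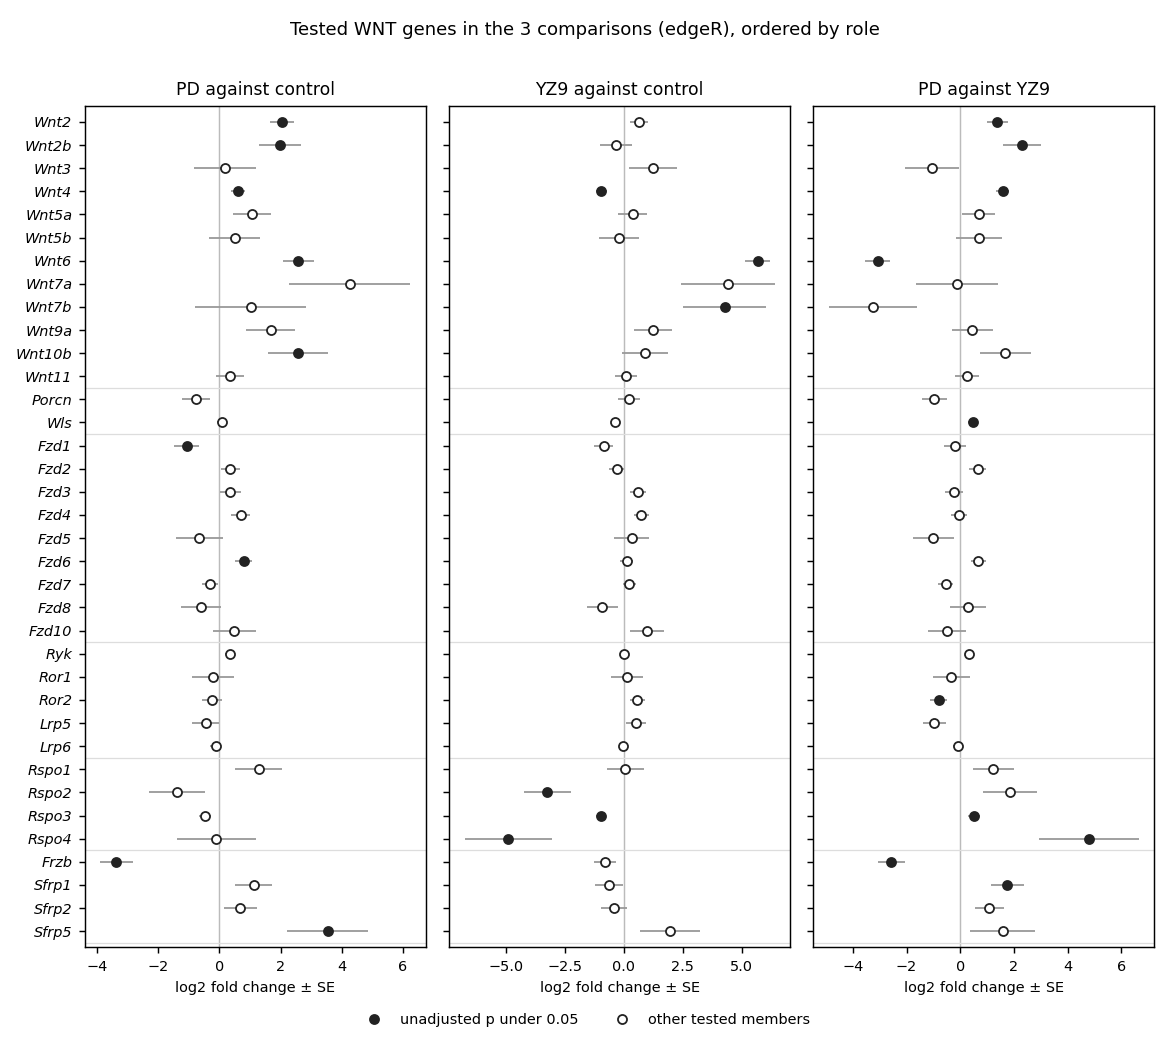
Log2 fold change with its standard error for the 36 tested WNT genes in the 3 comparisons, ordered by role from ligands at the top to secreted Frizzled-related genes at the bottom. Filled points have an unadjusted p under 0.05 (9, 6 and 10 genes), 0 pass after adjustment over all genes, and the fitted values of Wnt7a (controls) and Rspo4 (YZ9) rest on 3 counts or fewer in a group.

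Among the ligands, 3 genes carried most of the transcripts in every group. Per kilobase of exon, Wnt2, a ligand known from the allantois and heart field, stood at 59.2 ± 20.5 CPM per kb with PD, 22.6 ± 11.0 with YZ9 and 14.4 ± 2.55 in controls (SD, n = 2 each). Wnt5a, a ligand that acts mainly without beta-catenin and is needed for axis elongation, stood at 18.7 ± 12.1, 11.5 ± 5.88 and 8.94 ± 5.23 CPM per kb in PD, YZ9 and control explants. Wnt4, a ligand known from kidney and gonad development, stood at 13.4 ± 2.51, 4.49 ± 0.0584 and 8.78 ± 1.73 CPM per kb in the same groups. In controls the libraries of Wnt2 and Wnt5a overlapped, as did those of Wnt5a and Wnt4, so their order there is not resolved, and the next gene, Wnt3, was lower in both libraries at 0.732 ± 0.326 CPM per kb. With PD, Wnt2 stood above Wnt5a in both libraries, and Wnt5a and Wnt4 overlapped. With YZ9, Wnt6 came after Wnt5a at 6.21 ± 2.03 CPM per kb, above Wnt4 in both libraries and overlapping Wnt5a.

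Summed over the 19 ligand genes, transcripts reached 107 and 92.0 CPM per kb in the PD libraries, 41.1 and 60.3 in the YZ9 libraries, and 43.0 and 27.8 in the controls. The PD libraries were above all others, and YZ9 overlapped the controls. Wnt2 made up 68.9% and 48.5% of this sum with PD, 36.2% and 50.3% with YZ9, and 37.7% and 45.4% in controls. Wnt6 made up 0.885% and 0.559% with PD, 18.6% and 7.91% with YZ9, and 0.278% and 0.433% in controls.

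**Figure D2:**
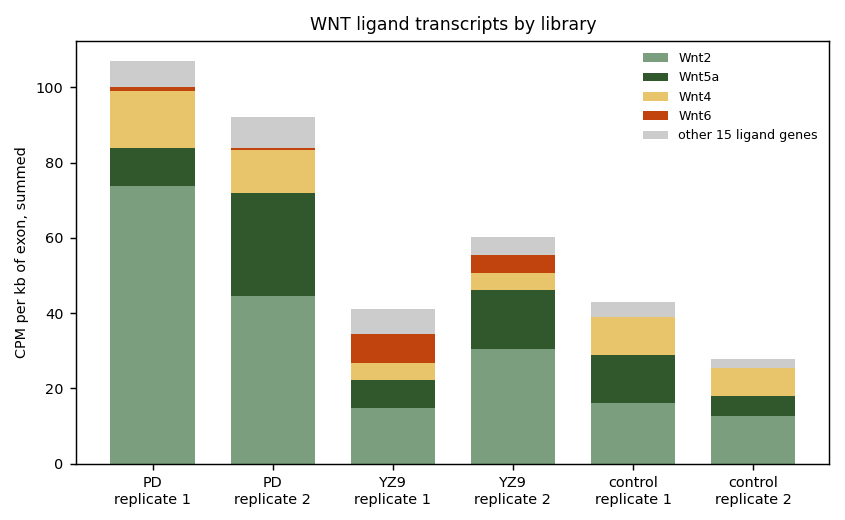
Summed level of the 19 WNT ligand genes in each library, in CPM per kilobase of exon, split into Wnt2, Wnt5a, Wnt4, Wnt6 and the other 15. The bars reach 107 and 92.0 with PD, 41.1 and 60.3 with YZ9, and 43.0 and 27.8 in controls, and the Wnt6 segment is largest in the YZ9 bars.

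Wnt6, a ligand known from surface ectoderm and other embryonic epithelia, showed the smallest p of the 36 tested genes. It had 2.08 and 1.13 CPM (54 and 28 counts) in the PD libraries, 16.7 and 10.5 CPM (374 and 310 counts) in the YZ9 libraries, and 0.262 and 0.263 CPM (7 and 7 counts) in the controls. The 3 groups did not overlap, with YZ9 highest and control lowest. The log2 fold change was 5.67 with YZ9 against control (SE 0.53, edgeR adjusted p = 0.114), 2.59 with PD against control (SE 0.51, adjusted p = 0.157) and -3.08 with PD against YZ9 (SE 0.45, adjusted p = 0.0939). For YZ9 against control Wnt6 passed in 5 of 13 alternatives (edgeR or alternative adjusted p between 8.01e-17 and 0.706), and its log2 fold change stayed between 5.14 and 5.98. The authors' deposited table, made with DESeq2, gives 5.71 for YZ9 (SE 0.57) at an adjusted p = 4.33e-20.

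The 8 listed markers of epithelium, of which 0 passed the test, summed to 11956 and 7705 CPM with PD, 7220 and 5741 CPM with YZ9, and 6118 and 5190.5 CPM in controls, and none was at 0 in any library. Both PD libraries exceeded both controls in 7 of the 8, and both YZ9 libraries did so in 6. Of all genes tested, 38.7% with PD and 45.7% with YZ9 did not overlap the controls, in either direction. Most of each sum was Krt8, at 2073 to 4860 CPM per library, and Krt18, at 2110 to 5456 CPM. Cdh1, Epcam, Cldn6, Cldn7 and Esrp1 of the list were higher in every inhibitor library than in both controls. Epcam had 51.9 and 9.22 CPM with PD, 38.4 and 17.6 CPM with YZ9, and 0.862 and 2.52 CPM in controls. Cdh1, the E-cadherin gene, had 79.8 and 21.6 CPM with PD, 113 and 30.7 CPM with YZ9, and 1.84 and 3.80 CPM in controls, so PD and YZ9 overlapped for Cdh1 where they did not for Wnt6. The part of these cells in the Wnt6 values was not tested.

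Wnt7b, a ligand of embryonic epithelia and trophoblast, had 0.538 and 0 CPM with PD, 4.52 and 0.776 CPM with YZ9, and 0 and 0.263 CPM in controls. Both YZ9 libraries lay above the others, and the controls together held 7 counts. Its log2 fold change with YZ9 against control was 4.27 (SE 1.76, edgeR adjusted p = 0.436), and without YZ9 replicate 1 it was 2.52. Wnt7a, a related ligand, had 59 and 2 counts with PD, 53 and 7 with YZ9, and 0 and 3 in controls, so its high counts lay in the libraries numbered 1. Against the 3 control counts the ratio was 21.3 for PD (95% exact counting interval 6.95 to 106) and 20.5 for YZ9 (6.68 to 102), an interval that covers counting error only.

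Wnt2 had 166 and 101 CPM in the PD libraries, 33.5 and 68.5 CPM in the YZ9 libraries, and 36.6 and 28.5 CPM in the controls. PD stood above both other groups, while YZ9 and control overlapped. On the log2 scale the fold change was 2.04 with PD against control (SE 0.40, edgeR adjusted p = 0.157) and 1.39 with PD against YZ9 (SE 0.39, adjusted p = 0.291). The value with PD against control was 1.63 to 2.35 when 1 library was left out, and that with PD against YZ9 was 0.95 to 1.98. Wnt2b, its closest paralogue, had 6.92 and 11.6 CPM with PD, 2.87 and 0.911 CPM with YZ9, and 3.34 and 1.36 CPM in controls. It showed the same arrangement at a lower level, with log2 fold changes of 1.98 against control (SE 0.68, edgeR adjusted p = 0.348) and 2.31 against YZ9 (SE 0.70, adjusted p = 0.321). When 1 library was left out, the value against control lay between 1.47 (without control replicate 2) and 2.77 (without control replicate 1). The value against YZ9 lay between 1.68 (without YZ9 replicate 2) and 3.33 (without YZ9 replicate 1).

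The cardiac marker list, given here because Wnt2 and Frzb are known from heart-forming tissue, summed over 10 genes to 1171 and 244 CPM with PD, 1867 and 1088 CPM with YZ9, and 1777 and 1773 CPM in controls. Both PD libraries lay below both controls in 7 of the 10 markers, where 38.7% of all genes tested did not overlap in either direction, and PD replicate 2 held the lowest sum. No cardiac marker was at 0 in any library. Wnt2 was the higher in PD replicate 1, the PD library with the higher cardiac sum. Within YZ9, Wnt2 was the higher in replicate 2, whereas the cardiac sum was the higher in replicate 1. The part of these cells in the values of Wnt2 was not tested.

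Wnt4 stood on opposite sides of the controls in the inhibitor groups. It had 63.8 and 48.9 CPM with PD, 18.7 and 19.0 CPM with YZ9, and 42.0 and 31.7 CPM in controls, so PD lay above and YZ9 below the controls with no overlap. The log2 fold change was 1.58 with PD against YZ9 (SE 0.23, edgeR adjusted p = 0.0939), 0.61 with PD against control (SE 0.23, adjusted p = 0.390) and -0.97 with YZ9 against control (SE 0.23, adjusted p = 0.241). The value for PD against YZ9 lay between 1.38 and 1.75 when 1 library was left out.

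Wnt5a had 79.2 and 213 CPM with PD, 57.6 and 123 CPM with YZ9, and 98.9 and 41.0 CPM in controls. Its groups overlapped in every comparison. Wnt10b, a ligand that acts through beta-catenin, had 3.61 and 2.29 CPM with PD, 1.70 and 0.169 CPM with YZ9, and 0.525 and 0.452 CPM in controls. PD lay above both other groups, with a log2 fold change of 2.59 against control (SE 0.98, edgeR adjusted p = 0.401).

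The ligands known to drive gastrulation itself were low. Wnt3, which is needed for the primitive streak, had 1.35 and 3.78 CPM with PD, 0.985 and 9.48 CPM with YZ9, and 2.96 and 1.54 CPM in controls, with overlapping groups. Wnt3a, needed for paraxial mesoderm, had 1 count in YZ9 replicate 2 and 0 in the other 5 libraries. Wnt8a, a ligand of the streak, had 0 and 11 counts with PD, 0 and 3 with YZ9, and 0 in both controls, so all its counts lay in the libraries with Xist. Wnt11, Wnt5b and Wnt9a ranged from 0.337 to 6.18 CPM, and their unadjusted p was above 0.05 in each comparison. The 7 ligand genes left untested had 0 to 17 counts per library. Wnt8b was at 0 in all 6 libraries, and Wnt1 had 0 to 1 count.

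**Figure D3:**
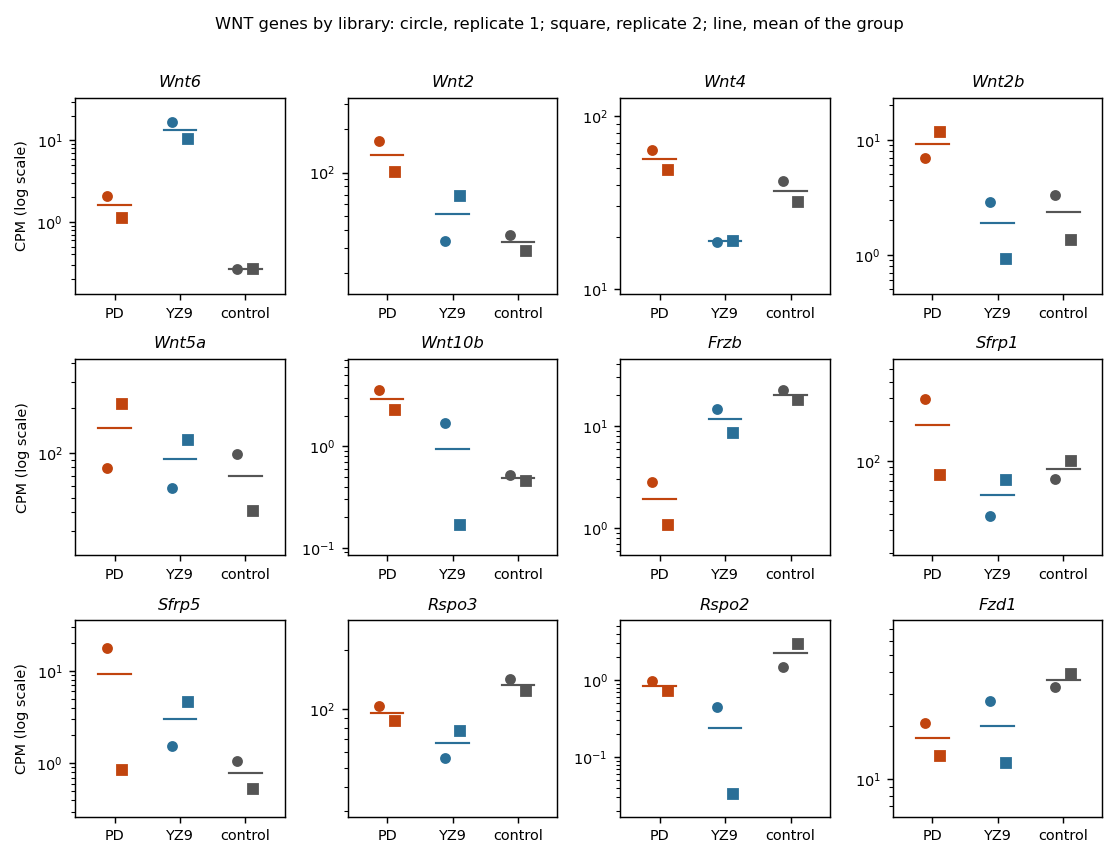
CPM on a log scale for 12 WNT genes in each of the 6 libraries, with PD, YZ9 and control from left to right and the group mean as a line. Wnt6 is highest in YZ9 (16.7 and 10.5), Wnt2 in PD (166 and 101), Frzb is lowest in PD (2.81 and 1.09), and the Sfrp5 and Sfrp1 values of PD replicate 1 (17.6 and 297) stand above the other 5 libraries.

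Of the processing genes, Wls was abundant. It had 625 and 717 CPM with PD, 425 and 545 CPM with YZ9, and 664 and 612 CPM in controls, and YZ9 was the lowest group with no overlap. Its log2 fold change with PD against YZ9 was 0.47 (SE 0.17, edgeR adjusted p = 0.380). Porcn, on the X chromosome, had 2.11 and 1.57 CPM with PD, 4.08 and 3.17 CPM with YZ9, and 2.21 and 4.07 CPM in controls, and its p was above 0.05 in each comparison.

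Among the Frizzled receptors, Fzd2 led in each group per kilobase, at 28.2 ± 0.558 CPM per kb with PD, 17.8 ± 2.97 with YZ9 and 22.0 ± 10.2 in controls (SD, n = 2 each). Fzd7 came next, at 7.47 ± 2.46, 10.9 ± 1.41 and 9.32 ± 1.37 CPM per kb in the same groups. In controls Fzd7 overlapped Fzd1. Both Fzd2 and Fzd7 are close relatives of Fzd1. Fzd2 had 105 and 102 CPM with PD, 72.9 and 57.5 CPM with YZ9, and 107 and 54.2 CPM in controls, and Fzd7 had 41.7 and 26.0, 44.8 and 53.9, and 46.6 and 37.9 CPM. Their unadjusted p was above 0.05 in each comparison.

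Fzd1 had 20.7 and 13.6 CPM with PD, 27.4 and 12.2 CPM with YZ9, and 33.1 and 39.3 CPM in controls. The controls were the highest group and the inhibitor groups overlapped. On the log2 scale the fold change with PD against control was -1.08 (SE 0.41, edgeR adjusted p = 0.406). Fzd6, a receptor of planar cell polarity, had 17.2 and 13.0 CPM with PD, 10.7 and 8.30 CPM with YZ9, and 8.06 and 9.41 CPM in controls. PD was its highest group, with a log2 fold change of 0.79 against control (SE 0.29, edgeR adjusted p = 0.376).

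Fzd4, known for vascular development, had 22.4 and 30.2 CPM with PD, 28.8 and 25.3 CPM with YZ9, and 20.4 and 12.2 CPM in controls. Fzd3, another polarity receptor, had 23.6 and 12.6 CPM with PD, 23.6 and 19.1 CPM with YZ9, and 15.4 and 12.9 CPM in controls. Both inhibitor groups lay above the controls for Fzd4, and YZ9 did for Fzd3, with unadjusted p above 0.05 in each comparison. Fzd5, Fzd8 and Fzd10 had 0.192 to 4.27 CPM. Fzd9 was not tested and had 9 and 9 counts with PD, 3 and 10 with YZ9, and 0 and 1 in controls, a ratio of PD to control of 18.8 (95% exact counting interval 2.98 to 785).

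Of the co-receptors, Ryk and Lrp6 led per kilobase in each group. Lrp6, which carries the beta-catenin signal, had 98.8 and 101 CPM with PD, 94.4 and 118 CPM with YZ9, and 117 and 101 CPM in controls, and its log2 fold changes had standard errors of 0.17 and unadjusted p above 0.05. Ryk had 81.3 and 81.1 CPM with PD, 65.7 and 62.5 CPM with YZ9, and 62.3 and 66.8 CPM in controls, so PD was above both other groups, with an unadjusted p above 0.05. Ror1 had 7.57 and 40.9 CPM with PD, 27.1 and 33.9 CPM with YZ9, and 32.9 and 22.9 CPM in controls, and PD replicate 1 was the lowest library. Ror2, a receptor for WNT5A, had 6.46 and 9.02 CPM with PD, 14.1 and 13.0 CPM with YZ9, and 11.0 and 7.26 CPM in controls, with a log2 fold change of -0.81 with PD against YZ9 (SE 0.32, edgeR adjusted p = 0.425). Lrp5 ranged from 4.95 to 13.0 CPM.

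Rspo3, known as a vascular and mesodermal R-spondin, had the most counts of its family. It had 104 and 87.0 CPM with PD, 56.2 and 77.6 CPM with YZ9, and 142 and 124 CPM in controls. The groups did not overlap, with control highest and YZ9 lowest. The log2 fold change was -0.99 with YZ9 against control (SE 0.21, edgeR adjusted p = 0.214) and 0.51 with PD against YZ9 (SE 0.21, adjusted p = 0.425). With PD against control it was -0.48 (SE 0.21, edgeR adjusted p = 0.487). The 10 markers listed for blood and endothelium, of which 0 passed the test, summed to 733 and 6881 CPM with PD, 237 and 1441 CPM with YZ9, and 2748 and 7623 CPM in controls, with 0 markers at 0 counts. Both YZ9 libraries lay below both controls in 6 of the 10, where 45.7% of all genes tested did not overlap in either direction. With PD 4 of the 10 were lower in this way and 1 was higher, against 38.7%. Of this list Hba-x, an embryonic globin gene, had 176 and 2344 CPM with PD, 2.78 and 628 CPM with YZ9, and 1478 and 4961 CPM in controls. Pecam1, an endothelial adhesion gene, had 38.0 and 38.1 CPM with PD, 27.6 and 34.5 CPM with YZ9, and 49.9 and 60.4 CPM in controls. Cdh5 and Tek, also endothelial genes of the list, overlapped between YZ9 and controls. Cdh5 had 16.8 and 7.85 CPM with PD, 23.7 and 20.6 CPM with YZ9, and 22.6 and 19.6 CPM in controls. Tek had 183 and 351 CPM with PD, 83.8 and 200 CPM with YZ9, and 164 and 135 CPM in controls. The part of these cells in the Rspo3 values was not tested. In the annotation the exons of Rspo3 share 404 bases with a gene on the opposite strand, and template-switching kits of the type used keep no strand, so reads of such partners cannot be told apart. Exons of Wnt5a, Wnt7b, Wnt11, Fzd5, Fzd6 and Sfrp2 also share bases with an opposite-strand gene. Those partner genes had 0 to 28 counts per library, and the partner of Rspo3 has no deposited count.

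The other R-spondins had few counts. Rspo2, known for limb and lung development, had 25 and 18 counts with PD, 10 and 1 with YZ9, and 39 and 79 in controls, and the groups did not overlap. Its log2 fold change with YZ9 against control was -3.25 (SE 1.01, edgeR adjusted p = 0.333), with -2.28 without YZ9 replicate 2 and -5.85 without YZ9 replicate 1, which leaves 1 count in the group. Rspo4 had 1 and 33 counts with PD, 1 and 0 with YZ9, and 24 and 15 in controls. Relative to library size, Rspo4 was 38.1-fold lower with YZ9 than in controls (95% exact counting interval 6.44 to 1542), an interval that covers counting error only. Its log2 fold change with YZ9 against control was -4.91 (SE 1.85, edgeR adjusted p = 0.404). Rspo1 had 5 to 22 counts per library.

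Frzb, a secreted antagonist of WNT ligands known from heart-forming mesoderm and cartilage, was lowest with PD. It had 2.81 and 1.09 CPM (73 and 27 counts) with PD, 14.6 and 8.50 CPM (327 and 252 counts) with YZ9, and 22.5 and 18.0 CPM (600 and 479 counts) in controls. The 3 groups did not overlap. On the log2 scale the fold change was -3.37 with PD against control (SE 0.53, edgeR adjusted p = 0.106) and -2.56 with PD against YZ9 (SE 0.51, adjusted p = 0.155). With PD against control it lay between -4.21 and -2.85 when 1 library was left out, and it passed in 2 of 13 alternatives. Over all 13 the adjusted p ran between 7.00e-09 and 0.541. The cardiac markers, of which 0 passed the test and 7 of 10 were lower in both PD libraries than in both controls (38.7% of all genes tested did not overlap, in either direction), are given above, and their part in the Frzb values was not tested.

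Sfrp1 was the most abundant gene of its family in each group. It had 297 and 77.8 CPM with PD, 38.5 and 72.2 CPM with YZ9, and 72.5 and 100.3 CPM in controls, and 1 library, PD replicate 1, stood apart. The log2 fold change with PD against YZ9 was 1.76 (SE 0.62, edgeR adjusted p = 0.373), and 0.49 without PD replicate 1. Sfrp5, known from anterior endoderm, had 17.6 and 0.845 CPM with PD, 1.52 and 4.55 CPM with YZ9, and 1.05 and 0.527 CPM in controls. With PD against control its log2 fold change was 3.54 (SE 1.33, edgeR adjusted p = 0.397), and 0.10 without PD replicate 1. Sfrp2 ranged from 1.21 to 5.11 CPM, again highest in PD replicate 1, and Sfrp4 had 0 to 6 counts.

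The 8 markers listed for definitive endoderm, of which 0 passed the test, summed to 553 and 54.9 CPM with PD, 336 and 98.7 CPM with YZ9, and 19.0 and 34.1 CPM in controls. Most of the 553 CPM was Cldn4, a tight junction gene, at 520.2 CPM. The other 7 summed to 32.7 and 15.0 CPM with PD, 32.8 and 16.9 CPM with YZ9, and 15.4 and 13.2 CPM in controls. In that sum PD replicate 1 did not stand apart. Sox17, an endoderm factor of that list, had 16.5 and 6.32 CPM with PD, 21.7 and 7.96 CPM with YZ9, and 9.67 and 4.44 CPM in controls. Foxa2 of the list had 6.497 and 3.18 CPM with PD, 1.03 and 0.944 CPM with YZ9, and 0 and 0.151 CPM in controls. Foxa1 had 4.498 and 1.65 CPM with PD, 0.627 and 1.25 CPM with YZ9, and 0.1499 and 0.226 CPM in controls. Both were highest in PD replicate 1, as was Cldn4. Sox17, Hhex, Trh, Pyy and Cer1 of the list were highest in other libraries. The 14 markers listed for visceral endoderm, again with 0 passing, summed to 226 and 84.8 CPM with PD, 327 and 291 CPM with YZ9, and 260.2 and 274 CPM in controls. Their most abundant gene, Apoe, had 114 and 56.9 CPM with PD, 308 and 272 CPM with YZ9, and 244 and 244 CPM in controls. Rbp4 of that list had 51.9 and 8.77 CPM with PD, 3.49 and 3.44 CPM with YZ9, and 3.11 and 7.45 CPM in controls. In the same list Afp had 34.3 and 5.76 CPM with PD, 0.314 and 1.79 CPM with YZ9, and 0.899 and 0.565 CPM in controls. Afp and Rbp4 were thus highest in PD replicate 1, as were Ttr, Spink1 and Rhox5. Ttr was low, at 1.73 and 0.966 CPM with PD, 0.0448 and 0.101 CPM with YZ9, and 0.300 and 0 CPM in controls. Apoe, Amn, Apob, Cubn, Trf, Apom, Apoa1 and Apoa4 were highest in other libraries, and Hnf4a was at 0 in every library. In the YZ9 group Sfrp5 was higher in replicate 2, whereas both endoderm sums were higher in replicate 1. The part of endoderm in the Sfrp1 and Sfrp5 values was not tested.

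**Figure D4:**
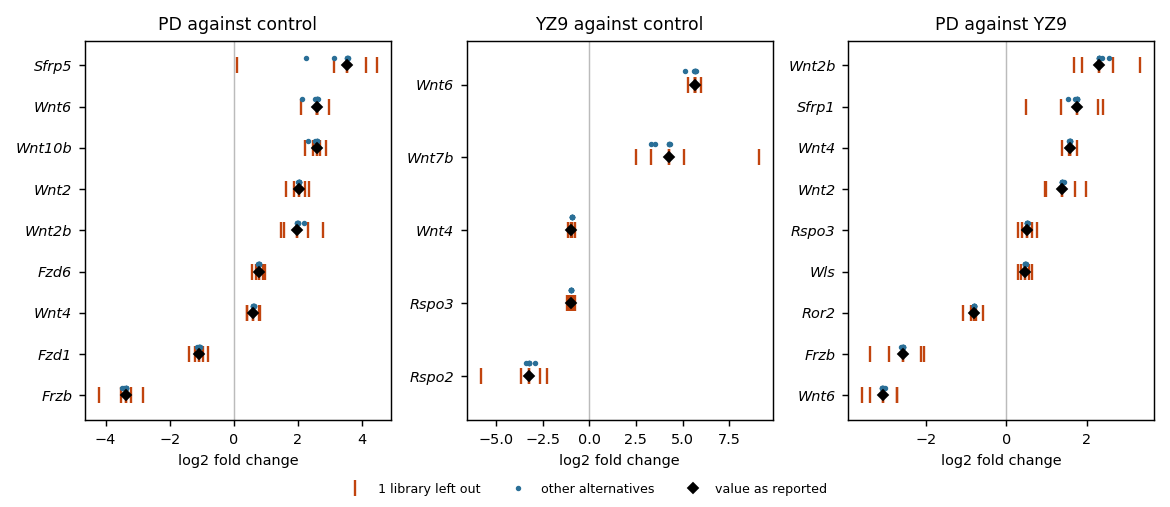
Log2 fold change of the WNT genes with an unadjusted p under 0.05 (Rspo4 left out for its low counts) as reported, with 1 library left out, and under the other alternatives. Wnt6 with YZ9 against control spans 5.14 to 5.98, and Frzb with PD against control spans -4.21 to -2.85. With PD against control, Wnt4 spans 0.41 to 0.83 and Sfrp5 spans 0.10 to 4.47. Sfrp1 with PD against YZ9 spans 0.49 to 2.41.

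The promoter windows of the 4 genes with the smallest p are printed to show what DNA lies at their starts. They are RefSeq sequences of GRCm38.p6, 250 bases before to 50 after the start site, read 5′ to 3′ on the gene's strand, and capitals mark the 5-base core of the TCF/LEF motif, CTTTG, or its reverse complement, CAAAG. The windows are chr1:74771642-74771941 (plus strand) for Wnt6, chr4:137277385-137277684 (plus strand) for Wnt4, chr2:80447347-80447646 (minus strand) for Frzb and chr6:18030396-18030695 (minus strand) for Wnt2.
Wnt6: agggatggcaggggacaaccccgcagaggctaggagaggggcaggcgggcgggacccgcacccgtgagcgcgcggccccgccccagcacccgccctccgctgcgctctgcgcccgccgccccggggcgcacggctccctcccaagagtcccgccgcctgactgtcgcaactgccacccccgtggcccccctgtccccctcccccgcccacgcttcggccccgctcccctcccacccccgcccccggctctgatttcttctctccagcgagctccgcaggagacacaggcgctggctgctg
Wnt4: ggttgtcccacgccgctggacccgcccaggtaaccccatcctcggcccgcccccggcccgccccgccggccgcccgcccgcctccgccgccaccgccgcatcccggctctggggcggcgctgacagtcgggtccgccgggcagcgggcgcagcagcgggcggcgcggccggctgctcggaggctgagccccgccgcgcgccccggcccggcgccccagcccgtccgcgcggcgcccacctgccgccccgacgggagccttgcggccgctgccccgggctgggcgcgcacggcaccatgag
Frzb: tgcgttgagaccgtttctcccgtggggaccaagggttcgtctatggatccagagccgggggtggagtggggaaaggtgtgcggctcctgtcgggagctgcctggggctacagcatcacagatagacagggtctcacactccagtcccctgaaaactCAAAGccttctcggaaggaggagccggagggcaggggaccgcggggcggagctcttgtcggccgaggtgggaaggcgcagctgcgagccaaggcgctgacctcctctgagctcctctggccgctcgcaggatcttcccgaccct
Wnt2: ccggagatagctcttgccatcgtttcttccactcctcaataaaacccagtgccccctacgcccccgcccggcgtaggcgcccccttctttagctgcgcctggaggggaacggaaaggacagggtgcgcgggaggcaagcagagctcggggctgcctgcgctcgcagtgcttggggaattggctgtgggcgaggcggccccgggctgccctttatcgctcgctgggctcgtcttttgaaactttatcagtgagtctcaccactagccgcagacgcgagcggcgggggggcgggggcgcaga
The Frzb window holds 1 core and the others hold 0, and 53.9% of all 32851 promoter windows hold at least 1. The longer TCF/LEF form CTTTGAT (reverse complement ATCAAAG) and the ETS form CCGGAAG (reverse complement CTTCCGG) occur in none of the 4, against 3.73% and 8.86% of all windows. The motifs were searched on both strands, and the longer TCF/LEF form contains the core. CG dinucleotides number 31 in Wnt6, 51 in Wnt4, 20 in Frzb and 27 in Wnt2, where the median window holds 7 and the median of the 33 windows of the WNT genes holds 29. Windows were found for 30 of the 45 genes.

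In GRCm38 with GENCODE M21, Wnt6 (ENSMUSG00000033227) spans chromosome 1, 74771892 to 74785322, and Wnt2 (ENSMUSG00000010797) spans chromosome 6, 17988940 to 18030585. Wnt4 (ENSMUSG00000036856) spans chromosome 4, 137277489 to 137299726, Frzb (ENSMUSG00000027004) chromosome 2, 80411970 to 80447625, and Rspo3 (ENSMUSG00000019880) chromosome 10, 29452416 to 29535867. These spans cover exons and introns, and the counts are per gene. For Wnt4, Frzb and Wnt2 the GENCODE start lies inside the printed window, upstream of the RefSeq start. The window bases beyond that GENCODE start, with the marked core of Frzb, are therefore inside the gene by GENCODE.

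The rest of the pathway was read from 5 lists. Of the secreted antagonists and agonists outside the rule, 12 of 18 were tested and 0 passed in any comparison, with median log2 fold changes of -0.11, -0.14 and -0.05 with PD against control, YZ9 against control and PD against YZ9. Dkk2, a secreted ligand of LRP5 and LRP6, had 33.8 and 38.3 CPM with PD, 11.4 and 15.2 CPM with YZ9, and 36.1 and 34.3 CPM in controls, so YZ9 alone stood below, with a log2 fold change of -1.41 against control (SE 0.23, edgeR adjusted p = 0.160). Sost, an LRP antagonist known from bone, had 1 and 0 counts with PD, 13 and 13 with YZ9, and 36 and 11 in controls. Apcdd1, an inhibitor at the receptor, had 3.11 and 2.62 CPM with PD, 5.06 and 10.3 CPM with YZ9, and 8.54 and 5.04 CPM in controls.

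Of the receptor turnover and R-spondin receptor genes, 7 of 9 were tested and 0 passed, with medians of 0.43, 0.25 and -0.02. Lgr4, an R-spondin receptor, had 131 and 149.7 CPM with PD, 68.9 and 79.1 CPM with YZ9, and 124 and 162 CPM in controls. Like Rspo3 it was lowest with YZ9, at a log2 fold change of -0.95 against control (SE 0.19, edgeR adjusted p = 0.206). Lgr5, another R-spondin receptor, had 8.76 and 4.19 CPM with PD, 6.27 and 10.9 CPM with YZ9, and 2.55 and 3.43 CPM in controls, with a log2 fold change of 1.52 with YZ9 against control (SE 0.48, edgeR adjusted p = 0.342). Reck, a co-receptor for WNT7 ligands, had a log2 fold change of 1.15 with PD against control (SE 0.39, edgeR adjusted p = 0.330).

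The cytoplasmic cascade had 25 of 26 genes tested, 0 passed, and its medians were -0.01, 0.03 and -0.09. Axin2, a scaffold of the beta-catenin destruction complex and a WNT target, had 4.07 and 3.58 CPM with PD, 8.15 and 6.48 CPM with YZ9, and 1.76 and 2.18 CPM in controls, with no overlap between groups. Its log2 fold change was 1.89 with YZ9 against control (SE 0.35, edgeR adjusted p = 0.181) and 0.96 with PD against control (SE 0.35, adjusted p = 0.376). Nkd1, an inhibitor of Dishevelled, had 12.6 and 21.3 CPM with PD, 27.9 and 23.4 CPM with YZ9, and 12.2 and 9.45 CPM in controls, with a log2 fold change of 1.25 with YZ9 against control (SE 0.32, edgeR adjusted p = 0.257). Frat2 had a log2 fold change of -1.43 with PD against control (SE 0.59, edgeR adjusted p = 0.458) and Caprin2 of -1.05 with PD against YZ9 (SE 0.30, edgeR adjusted p = 0.291).

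Of the nuclear factors 13 of 14 were tested and 0 passed, with medians of 0.13, 0.31 and -0.32. The TCF genes Tcf7l1 and Tcf7l2 were lower in all 4 inhibitor libraries than in both controls. Tcf7l2 had 153 and 155 CPM with PD, 126 and 109 CPM with YZ9, and 232 and 238 CPM in controls, with edgeR adjusted p of 0.189 for PD and 0.127 for YZ9 against control. Tcf7l1, at 73.4 to 85.1 CPM in controls, had log2 fold changes of -0.87 with PD and -0.87 with YZ9 against control (edgeR adjusted p = 0.157 and 0.206). Lef1 had 28.2 and 37.6 CPM with PD, 77.2 and 61.0 CPM with YZ9, and 65.3 and 46.4 CPM in controls, with a log2 fold change of -1.07 with PD against YZ9 (SE 0.25, edgeR adjusted p = 0.224). Planar cell polarity genes, all 14 tested, had medians of -0.12, 0.31 and -0.36 and 0 passed. In that list Celsr1, an atypical cadherin, had a log2 fold change of 2.89 with YZ9 against control (SE 1.01, edgeR adjusted p = 0.382), with 133 and 40 counts in YZ9 libraries and 20 and 6 in controls, and 1.47 without YZ9 replicate 1. At an unadjusted p under 0.05, genes counted as higher and lower numbered, over PD against control, YZ9 against control and PD against YZ9 in turn, 0 and 2, 0 and 1, and 1 and 2 of the secreted antagonists and agonists. For receptor turnover the counts were 1 and 0, 1 and 1, and 1 and 0, and for the cytoplasmic cascade 1 and 1, 3 and 0, and 0 and 2. For the nuclear factors they were 1 and 4, 1 and 2, and 1 and 2, and for planar cell polarity 0 and 0, 1 and 0, and 0 and 0. Over all genes tested the shares were 5.42% and 5.38%, 4.34% and 6.93%, and 7.09% and 4.4%.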

How the data were processed

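Members, lists and tests were chosen with earlier results of these data known. Per the submitters' processing notes, CASAVA 1.8.2, STAR 2.7.9a and DESeq2 1.40.1 were used with GRCm38; the sources used here do not give the counter or annotation release. Per the labels' protocols, libraries came from a template-switching kit for low input. Per the file headers, the 2 deposited tables give each library's raw count for every gene, as whole numbers. The authors' deposited normalized columns are a signal (count over size factor), and their log2 fold changes, Wald score, p-values and adjusted p-values come from DESeq2; only the authors' calls and 1 Wnt6 value are quoted.

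Control counts were identical in both tables and were joined into 6 libraries. In R 4.3.3, edgeR 4.0.16 filtered genes (filterByExpr, minimum count 10, minimum total 15), scaled them by TMM and fitted all 6 libraries by quasi-likelihood (2-sided, Benjamini-Hochberg, threshold 0.05). Each SE is |log2 fold change| divided by the root of its F. Levels per kilobase use the union of exons in GENCODE M21. Ratios with 1 to 3 counts in a group carry an exact 95% binomial interval, which covers counting error only. All 45 genes were accounted for: those with an unadjusted p under 0.05 or a group mean of at least 20 CPM by library, the others by range; list genes were named by the smallest p, up to 4. The pipeline was tested on simulated data. Alternatives were the DESeq2 1.42.0 test, its size factors in edgeR, limma-trend (limma 3.58.1, prior count 3), all genes unfiltered, a minimum mean of 50 counts, 4 libraries alone, the replicate number as a block, and leaving out each library.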

Additional observations from a re-analysis of the deposited data

How the results depend on the processing

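Over all genes, edgeR called 15 genes with PD against control, 1 with YZ9 against control and 19 with PD against YZ9. Without the filter these became 712, 556 and 601, with the DESeq2 test 622, 501 and 525, and of the WNT genes 5, 5 and 6 and then 4, 3 and 6 passed. The 4 libraries of a comparison alone gave 5 genes with YZ9 against control, Wnt6 as the 1 WNT gene, and 0 with PD against YZ9. limma-trend gave 34 with PD against YZ9. With the replicate number as a block the counts were 1, 3 and 12, and 0 WNT genes passed. The deviations of same-numbered libraries correlated at -0.0985 (PD and control), 0.166 (YZ9 and control) and 0.353 (PD and YZ9). The numbers were not taken as pairs, and a shared origin of same-numbered PD and YZ9 libraries was not tested. Leaving out 1 library gave 0 to 33 genes with PD against control, 0 to 9 with YZ9 against control and 0 to 35 with PD against YZ9, and 0 to 0, 0 to 1 and 0 to 0 WNT genes. Wnt6 was the gene that passed, with YZ9 against control, without PD replicate 1 and without PD replicate 2. The cause of these shifts was not tested. The 54 log2 fold changes recomputed were picked for an unadjusted p under 0.05, except that of Rspo3 with PD against control. Under the alternatives that gave a value 0 changed sign, a result that this choice made likely. Without control replicate 2, Wnt7b has 0 control counts and its fitted value of 9.10 is no bound. With 2 libraries a group, the spread between libraries limits these comparisons.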

Other observations

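In all, 4 pairs of WNT ligand genes are neighbours in the mouse genome, and the members of a pair differed in level. Wnt10a starts 6.19 kb beyond Wnt6 on chromosome 1, on the same strand, and had 5 and 0 counts with PD, 17 and 2 with YZ9, and 0 and 1 in controls. Its ratio of YZ9 to control was 19.5 (95% exact counting interval 3.09 to 809), with 17 of the 19 counts in YZ9 replicate 1, the library that was also higher for Wnt6. Wnt10b and Wnt1 lie 11.7 kb apart on chromosome 15. Wnt10b had 94 and 57 counts with PD, 38 and 5 with YZ9, and 14 and 12 in controls, whereas Wnt1 had 0 to 1 count. Wnt9a and Wnt3a lie 16.2 kb apart on chromosome 11. Wnt9a had 142 and 133 counts with PD, 138 and 53 with YZ9, and 72 and 18 in controls, and Wnt3a had 0 to 1 count. Wnt3 and Wnt9b lie 24.3 kb apart on the same chromosome, with 22 to 281 counts for Wnt3 and 0 to 4 for Wnt9b. These pairs were picked after the values were seen.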
